A study of Mus musculus with 4 samples.

Results

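Granins are acidic secretory proteins that aggregate in the trans-Golgi and help to form dense-core vesicles, the organelles in which sympathetic neurons keep neuropeptides and part of their noradrenaline. Prohormone convertases cut granins and peptide precursors at pairs of basic residues inside these vesicles, and carboxypeptidase E then trims the basic residues from the ends. The granin and granin-like genes Chga, Chgb, Scg2, Scg3, Scg5, Vgf and Pcsk1n and the enzyme genes Pcsk1, Pcsk2 and Cpe were taken by symbol. All 10 matched a row of the authors' deposited table of 21937 genes, and all 10 passed a minimum mean value of 50.

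The RNA was that of stellate and superior cervical ganglia, pooled over adult mice of postnatal day 60 after 10 days of tamoxifen. The Hand2 mutant was B6.129/SVJHand2flox/del::C57BL/6P1DbhCreERT2, the Gata3 mutant B6.126/SV129Gata3flox/flox::C57BL/6P1DBhCreERT2, the Hand2 control B6.129/SVJHand2flox/+::C57BL/6P1DbhCreERT2 and the Gata3 control B6.129/SV129Gata3flox/+::C57BL/6P1DbhCreERT2, each with 1 pool. The Gata3 mutant pool held 32 ganglia of 8 mice, and the other pools held 16 ganglia of 4 mice each. All groups, controls included, carried the tamoxifen-dependent Cre driven by Dbh regulatory sequence, meant to limit recombination to noradrenergic cells. The RNA is from whole ganglia, and where recombination took place, also in the flox/+ controls, was not measured here. In the Gata3 mutant only rudiments of ganglia were present, and the series' design text describes their remaining cells as having escaped the knockout.

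The authors' deposited table sets a column called side B here against a column headed control, called side A. It does not say which line or lines the columns hold, so no genotype is given to side B, and it is set against side A only because side A is the column headed control. With 1 column on each side there is no replicate spread, and "higher" and "lower" describe these columns without a test. Values are taken as normalised reads per gene with no stated unit, and they summed to 19135221 on side B and 19343986 on side A. The log2 ratio of side B to side A, with a pseudocount of 1, had a median of 0.0026 over the 12043 genes whose mean value reached 50. Hand2 had a value of 2001 on side B and 4749 on side A, and Gata3 had 1050 on side B and 1105 on side A.

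Regulatory sequence of these genes is shown first, because several of them are textbook targets of cyclic AMP signalling. The RefSeq promoter table (GRCm38.p6, with 250 bases before and 50 after each annotated start) had a window for 8 of the 10 genes, all but Vgf and Cpe. The cyclic AMP response element TGACGTCA, which reads the same on both strands, lay before the start in Scg2, Chgb and Pcsk1, and in 1.55% of all 32851 windows. The variant TGACGTAA, searched on both strands after the Chga window had been seen, lay before the start of Chga and in 0.447% of all windows. The matches are in capitals with 20 bases on either side, each written 5′ to 3′ on the strand of the gene.
Scg2: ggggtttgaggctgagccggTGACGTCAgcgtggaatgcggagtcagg
Chgb: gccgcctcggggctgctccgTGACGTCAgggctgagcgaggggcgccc
Pcsk1: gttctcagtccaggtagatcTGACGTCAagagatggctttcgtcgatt
Chga: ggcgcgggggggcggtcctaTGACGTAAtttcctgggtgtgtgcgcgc

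These stretches lie at chr1:79440067-79440114 on the minus strand for Scg2, chr2:132781550-132781597 on the plus strand for Chgb, chr13:75089759-75089806 on the plus strand for Pcsk1 and chr12:102554877-102554924 on the plus strand for Chga. The match begins 68 bases before the annotated start in Scg2, 72 in Chgb, 78 in Pcsk1 and 44 in Chga. An E-box, CANNTG, the kind of site that basic helix-loop-helix factors such as Hand2 bind, lay before the start in 6 of the 8 windows, namely those of Chga, Chgb, Scg2, Scg5, Pcsk1n and Pcsk2. It was also in 66.2% of all windows, and a match of letters does not show binding. Among the 8 windows searched, the 3 genes with the full element did not share a direction: Scg2 and Pcsk1 had higher values on side B, and Chgb a lower value. Vgf and Cpe had no window, so whether they carry the element was not searched.

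Chgb and Vgf had lower values on side B, while the other 8 genes lay within 1.2-fold of side A. In total the 10 genes had nearly the same share of each side, 0.310% of all values on side B and 0.305% on side A, and their summed values were 59230 on side B and 58915 on side A. Of the 10 genes, 6 had a higher and 4 a lower value on side B, against 6062 higher and 5878 lower among all 12043 genes. The members' median log2 ratio was 0.05. RNA from whole ganglia cannot tell apart fewer cells of a type and less of a transcript in each cell.

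**Figure D1:**
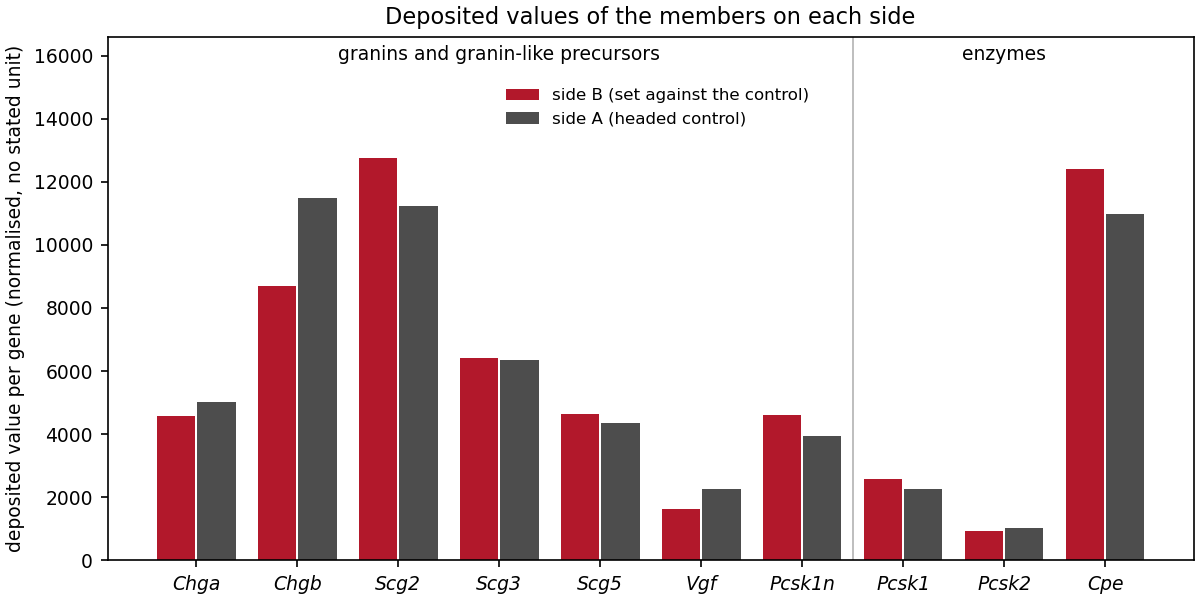
Deposited values (vertical axis, normalised, no stated unit) of the 10 genes, with side B in red to the left of side A in grey and 1 column per side, so no error bars. Chgb at 8698 and 11500 and Vgf at 1634 and 2267 are the pairs in which side B is lowest relative to side A.

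At a threshold of 1.2-fold, Chgb and Vgf were the only members past it, both lower on side B, where 8.15% of the 12043 genes were as far below. Chgb lost this place when side B was scaled to the same noradrenergic marker sum, and 4 members were then at least 1.2-fold higher, beside 28.5% of all genes. With Slc6a2 and Dbh left out of that sum, a setting chosen after seeing the data, Chgb kept its place. In that setting 1 member was at least 1.2-fold higher, beside 11.2% of all genes. Without either scaling none of the 10 was at least 1.2-fold higher, against 7.02% of all genes. Low genes scatter more, so the 4361 genes whose mean value reached 1000 are a closer background for these abundant transcripts: there 3.58% were at least 1.2-fold lower and 1.61% at least 1.2-fold higher, and 9 members (all but Pcsk2) were among them, with 2 lower and 0 higher. No member differed by 2-fold, a size reached by 0.0332% of the 12043 genes in the higher direction and 0.448% in the lower direction.

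Chromogranin B, encoded by Chgb, is a major soluble granin of sympathetic neurons and chromaffin cells. Chgb had a value of 8698 on side B and 11500 on side A, a ratio of 0.756 and a log2 ratio of -0.40, which became -0.23 and lay within 1.2-fold when side B was scaled to the same noradrenergic marker sum. With Slc6a2 and Dbh left out of that sum it was -0.35, past 1.2-fold. Of the 4361 abundant genes, 46 had a lower ratio. For Chgb the authors' deposited table holds an unadjusted p of 0.00112, adjusted to 0.211, so the difference did not pass an adjusted threshold of 0.05.

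Vgf encodes a nerve growth factor-inducible precursor that is cut into several secreted peptides. Vgf had a value of 1634 on side B and 2267 on side A, a ratio of 0.721 and a log2 ratio of -0.47, the lowest of the 10. Of the abundant genes, 29 had a lower ratio. For Vgf the authors' deposited table holds an unadjusted p of 0.00222, adjusted to 0.353. Of the 16990 genes that have a p in the authors' deposited table, 89 had a smaller one than Chgb and 106 a smaller one than Vgf.

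The other acidic granins did not share the position of Chgb. Chromogranin A, encoded by Chga, the precursor of vasostatin and catestatin, had a value of 4565 on side B and 5023 on side A, a log2 ratio of -0.14 that became 0.03 when side B was scaled to the same noradrenergic marker sum. With Slc6a2 and Dbh left out of that sum it was -0.08. Secretogranin II, encoded by Scg2, the precursor of secretoneurin, had a value of 12772 on side B and 11224 on side A, a log2 ratio of 0.19. Per kilobase of exon Scg2 lay above Chgb on both sides, at 1.60 times Chgb on side B and 1.06 times on side A, and their log2 ratios differed by 0.59. The summed values of Chga, Chgb and Scg2 were 26035 on side B and 27747 on side A, a ratio of 0.938, which is nearer to 1 than the ratio of Chgb.

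Secretogranin III, encoded by Scg3, ties granin aggregates to cholesterol-rich vesicle membrane. Scg3 had a value of 6413 on side B and 6351 on side A, a ratio of 1.01, the closest to 1 of all 10 genes. Its partner in that binding is chromogranin A, and per kilobase of exon Scg3 was 1.11 times Chga on side B and 0.999 times Chga on side A.

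Scg5 and Pcsk1n, the members that act on the convertases, had higher values on side B, Scg5 only slightly. The 7B2 protein, encoded by Scg5, is the chaperone that proconvertase 2 needs to mature. Scg5 had a value of 4639 on side B and 4360 on side A, a log2 ratio of 0.09. Of the 4361 abundant genes, 923 had a higher ratio than Scg5. ProSAAS, encoded by Pcsk1n, is a granin-like precursor whose peptide inhibits convertase 1. Pcsk1n had a value of 4616 on side B and 3948 on side A, a ratio of 1.17 and a log2 ratio of 0.23, the highest of the 10, and 137 of the 4361 abundant genes had a higher ratio.

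The convertases differed in direction. Pcsk1, which encodes prohormone convertase 1, had a value of 2583 on side B and 2249 on side A, a log2 ratio of 0.20. Pcsk2, which encodes prohormone convertase 2, had a value of 912 on side B and 1023 on side A, a log2 ratio of -0.17 that became 0.0062 when side B was scaled to the same noradrenergic marker sum. With Slc6a2 and Dbh left out of that sum it was -0.11. Per kilobase of exon Pcsk1 was 2.65 times Pcsk2 on side B and 2.06 times on side A.

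Each convertase can be set beside its binding protein. The log2 ratio of Scg5 exceeded that of Pcsk2 by 0.25, and per kilobase of exon Scg5 was 19.9 times Pcsk2 on side B and 16.7 times on side A. The log2 ratio of Pcsk1n exceeded that of Pcsk1 by only 0.03, so this inhibitor and its enzyme had almost the same proportion per kilobase, 4.11 on side B and 4.03 on side A.

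Carboxypeptidase E, encoded by Cpe, removes the basic residues left by the convertases, and its membrane form has also been described as a sorting receptor. Cpe had a value of 12398 on side B and 10970 on side A, a ratio of 1.13 and a log2 ratio of 0.18. The summed values of Pcsk1, Pcsk2 and Cpe were 15893 on side B and 14242 on side A, a ratio of 1.12, and those of the 7 granins and granin-like precursors were 43337 on side B and 44673 on side A, a ratio of 0.970.

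After adjustment, no member passed a p of 0.05 by the authors' deposited table, where 0.0471% of 16990 genes were higher and 0.318% lower at that threshold. Before adjustment, the members past a p of 0.05 were Chgb and Vgf, both lower, against 1.58% of all genes in the lower direction and 0.471% in the higher direction in the authors' deposited table. For the other 8 members the authors' deposited table puts the adjusted value at 1, as it does for 16818 of the 16990 genes. The number of libraries behind these p-values is not stated in any source used here.

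**Figure D2:**
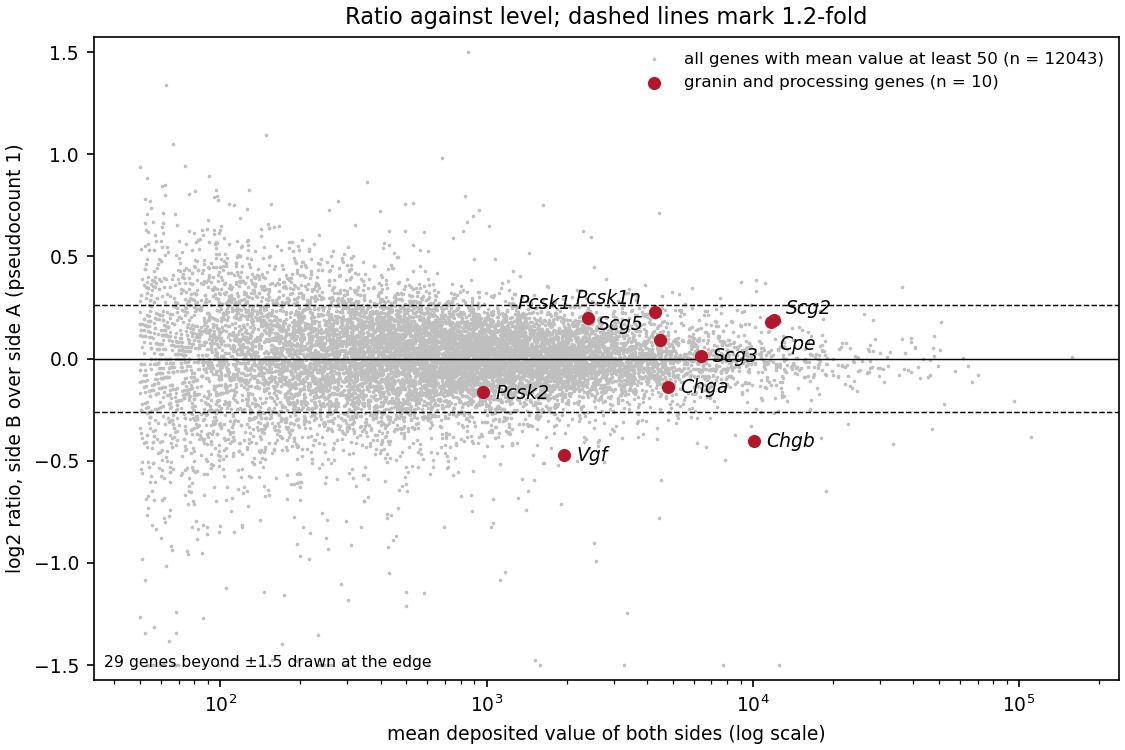
Log2 ratio of side B to side A (vertical axis) against the mean deposited value of both sides (horizontal axis, log scale), with 12043 genes in grey, the 10 genes in red and dashed lines at 1.2-fold. Chgb (-0.40) and Vgf (-0.47) lie under the lower line, and the other 8 lie between the lines.

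Levels of different genes were compared per kilobase of exon, using exon lengths from GENCODE M21. Cpe had the highest level of the 10, with 5856 per kilobase on side B and 5182 on side A, followed by Scg2 with 5078 on side B and 4463 on side A. Among 19589 genes with a length, Cpe ranked 143rd on side B and 163rd on side A. At the low end Pcsk2 had 193 per kilobase on side B and 217 on side A, and Pcsk1 had 513 on side B and 446 on side A. The cutting enzymes thus lay far below the trimming enzyme in both columns.

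The order of levels was alike on the sides except for Chgb, Scg5, Scg3 and Chga. Chgb had 3174 per kilobase on side B, below Scg5, and 4197 on side A, above Scg5. Scg5 had 3840 per kilobase on side B and 3609 on side A. Scg3 and Chga changed places with values close together, 2690 and 2424 on side B and 2664 and 2668 on side A. Pcsk1n had 2105 on side B and 1800 on side A, and Vgf had 554 on side B and 768 on side A. Which neighbours in this order differ beyond error cannot be said with 1 column per side.

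Within the granins and granin-like precursors, summed per kilobase, Chgb made up 16.0% on side B and 20.8% on side A. Scg2 made up 25.6% on side B and 22.1% on side A, and Scg5 19.3% on side B and 17.9% on side A. The smallest share was that of Vgf, with 2.79% on side B and 3.81% on side A.

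**Figure D3:**
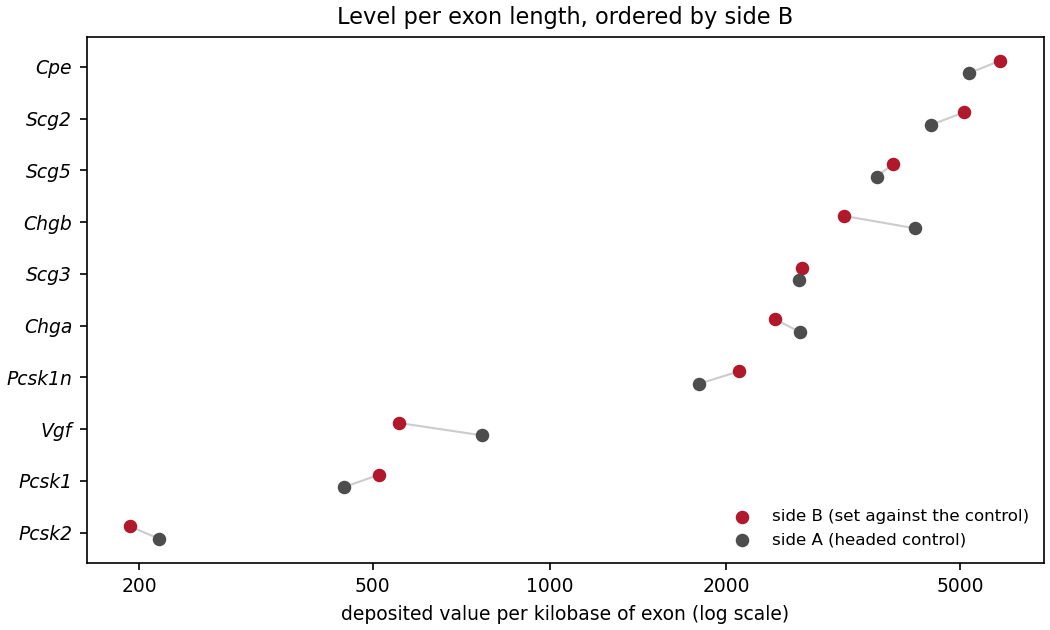
Deposited value per kilobase of exon (horizontal axis, log scale) of the 10 genes, ordered by side B, with side B as red points above side A as grey points. Levels run from 193 (Pcsk2) to 5856 (Cpe) on side B and from 217 to 5182 on side A.

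Other processing genes were described from a list of 21, of which 17 had a mean value of at least 50. Of these, 10 were higher and 7 lower on side B, with a median log2 ratio of 0.02. At 1.2-fold 1 was higher and 1 lower, against 7.02% and 8.15% of all genes. Pam, the enzyme that amidates peptide ends, had a value of 9929 on side B and 9413 on side A. The carboxypeptidase gene Cpd, whose product works in the trans-Golgi, had 1857 on side B and 1664 on side A. Furin, the convertase of the constitutive pathway, had 912 on side B and 1043 on side A. Qpct, which makes the pyroglutamate end of some peptides, had 375 on side B and 281 on side A, a log2 ratio of 0.42. The convertase gene Pcsk6 had only 87 on side B and 119 on side A, and Pcsk5 had 97 on side B and 112 on side A. Cyb561d2, a cytochrome b561 family gene, had 479 on side B and 406 on side A.

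Genes of dense-core vesicle formation, membrane and release differed little as a group. Of 47 listed, 45 had a mean value of at least 50, of which 21 were higher and 24 lower on side B, with a median log2 ratio of -0.02. Sv2c and Rph3a were the 2 genes past 1.2-fold, both lower, where 8.15% of all genes were at least 1.2-fold lower. Sv2c, a vesicle glycoprotein gene, had a value of 5659 on side B and 7649 on side A, and the authors' deposited table puts its adjusted p at 0.141. Rph3a, which encodes the Rab3 effector rabphilin, had 3389 on side B and 4382 on side A, and the authors' deposited table puts its adjusted p at 0.748. Cadps, whose product primes dense-core vesicles for release, had 10750 on side B and 10737 on side A. Ptprn, a transmembrane protein of these vesicles, had 11349 on side B and 12975 on side A. The calcium sensor gene Syt5 had 2874 on side B and 2500 on side A, and A630007B06Rik, which RefSeq pairs with Ccdc186, had 469 on side B and 562 on side A.

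Neuropeptide and hormone precursor genes were described from a list of 45, which also holds growth factor and other precursors that furin-type enzymes cut or whose processing is less well known. Over the whole list 24 were higher, 14 lower and 7 equal on side B. The 12 with a mean value of at least 50 had a median log2 ratio of 0.19, with 6 at least 1.2-fold higher and 2 at least 1.2-fold lower, against 7.02% and 8.15% of all genes. Vip had a value of 2049 on side B and 1216 on side A, and by the authors' deposited table it was the only gene of the list to pass 0.05 after adjustment, at 0.00154. Npy, the main peptide of noradrenergic sympathetic neurons, had 12494 on side B and 9658 on side A, and the authors' deposited table puts its adjusted p at 0.379. Cartpt had 151 on side B and 101 on side A. Pthlh, which encodes a parathyroid hormone-related protein, had 147 on side B and 261 on side A.

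**Figure D4:**
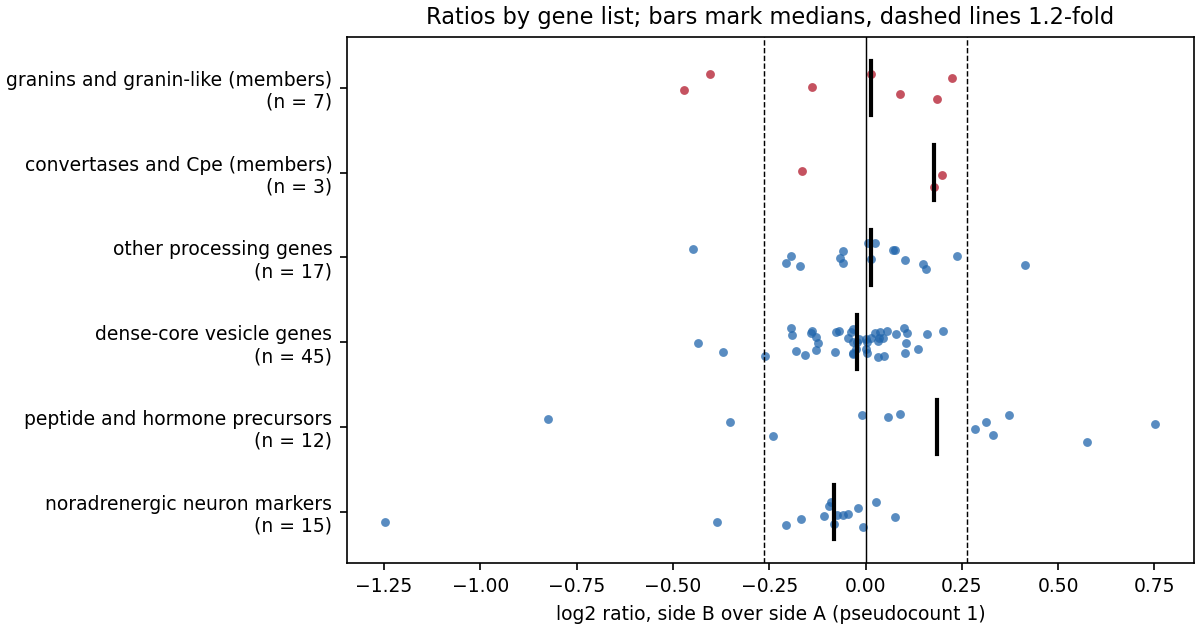
Log2 ratio of side B to side A (horizontal axis) for each gene with a mean value of at least 50, by list, with black bars at the medians, dashed lines at 1.2-fold and the members in red. Medians are 0.01 for the granins, 0.18 for the enzymes, 0.02 for other processing genes, -0.02 for dense-core vesicle genes, 0.19 for precursors and -0.08 for noradrenergic markers. Scaling side B to the same noradrenergic marker sum raises every median by about 0.17. The vesicle and noradrenergic medians then become 0.15 and 0.09, beside 0.17 for all genes.

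Markers of the ganglion's cell types also differed between the sides. All 15 noradrenergic markers had a mean value of at least 50, 2 higher and 13 lower on side B, with summed values of 414235 on side B and 469061 on side A. Slc6a2, the noradrenaline transporter gene, had 95865 on side B and 125271 on side A, and Dbh, whose enzyme shares the dense-core vesicle with the granins, had 89194 on side B and 102922 on side A. Sensory neurons also make granins, and of their 17 matched markers 3 were higher, 11 lower and 3 equal on side B, with sums of 13330 on side B and 14654 on side A. The 3 higher genes were the peptide genes Calca, with 33 on side B and 25 on side A, Calcb, with 7 on side B and 4 on side A, and Tac1, with 5 on side B and 3 on side A. The 6 sensory markers with a mean value of at least 50 were all lower, with a median log2 ratio of -1.50. Slc17a6 had 7 on side B and 128 on side A, and P2rx3 had 113 on side B and 377 on side A. Scn10a had 59 on side B and 224 on side A, and Scn11a had 50 on side B and 122 on side A. Most of the sensory sum was Avil, which had 12975 on side B and 13534 on side A. Mrgprd, Pou4f2 and Prdm12 were listed at 0 on both sides. Of 12 markers of chromaffin, small intensely fluorescent and carotid body cells, 3 were higher and 9 lower on side B, with sums of 21822 on side B and 22577 on side A. Most of that sum was Chrna3, which sympathetic neurons share, and Pnmt, the adrenaline enzyme of chromaffin cells, had only 4 on side B and 5 on side A. Slc18a1, a vesicular monoamine transporter of such cells, had 314 on side B and 533 on side A.

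Other cell types moved in both directions. Satellite glia and Schwann cell markers summed to 97791 on side B and 84158 on side A, with 12 of 17 genes higher. Macrophage markers summed to 4607 on side B and 3368 on side A, with all 16 higher. Skeletal muscle fibre markers summed to 944 on side B and 2962 on side A, with all 15 genes lower, and Mb and Tcap were listed at 0 on side B. Most of the side B sum was Myl1, with 826 on side B and 843 on side A. The 11 muscle markers with a mean value of at least 50 had a median log2 ratio of -4.64. Fibroblast markers summed to 42150 on side B and 45044 on side A, with 10 of 11 lower, and endothelial markers to 3455 on side B and 3462 on side A, with 7 of 11 higher. The sides also differed in sex-linked transcripts, which were named after their values were seen: Xist had 1595 on side B and 114 on side A, and Ddx3y was listed at 0 on side B and had 1206 on side A. The part of these cell type and sex differences in the values of Chgb, Vgf and the other members was not tested.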

How the data were processed

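The submitters' processing notes name TopHat2 2.0.8, SAMtools 0.1.19, HTSeq 0.5.4p1, DESeq with no version and the build mm9, with no settings. Per the file headers, the deposited side columns are DESeq group means of normalised reads, treated here as a score with no stated unit. They are whole numbers with median-of-ratios size factors of 1 and 1. Unscaled read counts of 1 library a side would look the same, but no source used here states this, so no counting error is given. The column the authors headed mutant expression equals the mean of both sides in all 21937 genes and was not used as a value. The authors' fold change is side B divided by side A (relative tolerance 1e-09) wherever it is given, in 16990 genes. The authors' p-values and adjusted p-values were copied, not recomputed.

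Log2 ratios used a pseudocount of 1, and summaries over genes a mean value of at least 50. No source used here states whether strand was used in counting, so overlapping and antisense genes are uncertain. The comparisons of the separate lines could not be made, since no column names a line. The members and gene lists were chosen with earlier results of these data known. Besides the 10 members, up to 4 genes with the largest absolute log2 ratio were named from each list, plus Pam, Furin, Cpd, Cadps, Ptprn and Npy for their roles, and Hand2 and Gata3 as targets. Not all genes so chosen are printed. Avil, Calca, Calcb, Tac1, Chrna3, Pnmt, Tcap, Myl1, Xist and Ddx3y were named after their values were seen, as were genes listed at 0. Symbols were matched directly or through RefSeq synonyms. Exon lengths are those of GENCODE M21 basic (GRCm38), not mm9. The ratio and fold rule were tested on simulated data. Python 3.11.15, pandas 2.3.3 and matplotlib 3.10.9 were used.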

Additional observations from a re-analysis of the deposited data

How the results depend on the processing

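The median log2 ratio of the 10 genes was 0.05, and it lay between 0.05 and 0.07 with other pseudocounts, with no minimum mean value and with scaling to the same column sum or to a median ratio of 1. It was 0.09 over the 9 whose mean value reached 1000. Scaling side B to the same sum over 13 noradrenergic markers raised every ratio by 0.17, the median of all genes included. The members' median was then 0.22, 4 members were at least 1.2-fold higher and 1, Vgf, at least 1.2-fold lower, beside 28.5% and 2.88% of all genes. The median of all genes was then 0.17. The same factor multiplies every side B value, so the distance between these medians could not change. Only the counts past a fixed fold could. With Slc6a2 and Dbh left out of that sum, a setting chosen after seeing the data, the shift was 0.06, 1 member was at least 1.2-fold higher and 2 at least 1.2-fold lower, beside 11.2% and 5.79% of all genes. Chgb and Vgf had lower values on side B under the 6 alternatives run for single genes, with log2 ratios from -0.41 to -0.23 and from -0.47 to -0.30. Pseudocounts hardly move values this large and the largest scaling shift was 0.17, so no alternative could have reversed either sign. Without division by length, 13 of 20 places in the order of levels changed, and with the longest transcript as length, also chosen after seeing the data, none did. No paired analysis was possible because each group has 1 pool and no column names a sample. With 1 column per side and no stated unit, neither replicate nor counting error is known.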

Other observations

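Gnas had the highest value of all genes in the table, 158843 on side B and 158021 on side A. Besides the stimulatory G protein alpha subunit, this locus encodes a granin-like neuroendocrine secretory protein from an alternative first exon. A value per gene does not separate these products. The ascorbate-linked cytochrome gene Cyb561, whose product supplies electrons to dopamine beta-hydroxylase and to the amidating enzyme inside the vesicle, had 37470 on side B and 39000 on side A. The peptide precursors Cck, Crh, Ucn, Iapp, Avp and Hcrt were listed at 0 on both sides, and Penk had only 21 on side B and 28 on side A. Gnas, Cyb561, Penk and the precursors at 0 were named after their values were seen.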
